A study of Mus musculus with 12 samples.

Results

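The Mir-15 family is a group of small regulatory RNAs that share a target-recognition seed. It was followed here in the hippocampus of 12 male mice. Members were chosen by name alone: a row of the table belonged to the family when its first name element was Mir-15 or began with Mir-15- in the MirGeneDB nomenclature, whatever the arm. This gave 14 rows of the 513 in the table, and 13 of the 14 had a mean of at least 10 and entered the tests, which covered 474 rows in all.

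The mice were wild-type C57BL/6J, an inbred laboratory strain, and grandsons (F2) in the male line. In the exercised lineage, the grandfathers of 6 mice had exercised, and in the sedentary lineage the grandfathers of 6 mice had not. No treatment of the sampled mice themselves is described, and neither their age nor the form of the exercise is stated in the labels. The comparison asks whether exercise of the grandfather goes with a different miRNA profile in the grandsons.

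A miRNA is cut from a hairpin with a 5p and a 3p arm. The arm loaded into an Argonaute protein, the guide, pairs with messenger RNAs through bases 2 to 8, the seed, and lowers their stability and translation. The other arm, the passenger, is mostly degraded. Members of the Mir-15 family are known for holding back the cell cycle through cyclins and their kinases and for repressing the survival factor Bcl2, and the miR-15a and miR-16-1 locus is frequently deleted in chronic lymphocytic leukaemia. In the nervous system, miR-16 is known as a repressor of the serotonin transporter.

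The table holds MirGeneDB names and no miRBase names. The miRBase names used below are background knowledge of MirGeneDB's naming, and every value given under a miRBase name rests on them. Only 1 check of them could be made. In the table, 1 row stands for the 5p arm of both Mir-15-P2a and Mir-15-P2b, and among the RefSeq mature sequences of the 8 hairpins 1, miR-16-5p, is likewise made by more than 1 hairpin. The mature sequences below, from RefSeq (GRCm38.p6, the assembly behind mm10), are shown because their shared seed defines the family. They are written 5′ to 3′ with the seed in capitals. The first 7 are the 5p arms, and the last 3 are the most abundant 3p arms of the family.
miR-16-5p (Mir-15-P2a and Mir-15-P2b): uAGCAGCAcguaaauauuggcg
miR-195a-5p (Mir-15-P2c): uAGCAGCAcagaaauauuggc
miR-15a-5p (Mir-15-P1a): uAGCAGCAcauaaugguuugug
miR-15b-5p (Mir-15-P1b): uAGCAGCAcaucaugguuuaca
miR-497a-5p (Mir-15-P1c): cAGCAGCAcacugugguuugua
miR-322-5p (Mir-15-P1d): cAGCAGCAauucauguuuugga
miR-503-5p (Mir-15-P2d): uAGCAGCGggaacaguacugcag
miR-16-1-3p (Mir-15-P2a): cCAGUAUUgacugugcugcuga
miR-195a-3p (Mir-15-P2c): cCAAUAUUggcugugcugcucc
miR-322-3p (Mir-15-P1d): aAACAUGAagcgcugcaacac

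The seed AGCAGCA was shared by 6 of the 7 different 5p sequences, and miR-503-5p had AGCAGCG. The sequences differed mainly after the seed. Compared without gaps from the 5′ end, miR-16-5p and miR-195a-5p were identical at 19 of 21 positions, miR-15a-5p and miR-15b-5p at 18 of 22, and miR-16-5p and miR-497a-5p at 11 of 22. The 3p arms carry other seeds.

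The 8 hairpins lie as 4 pairs, each with 1 hairpin of the P1 branch and 1 of the P2 branch, on 4 chromosomes of mm10 (GENCODE M21). Mir15a (chromosome 14, 61632027 to 61632110, minus strand) and Mir16-1 (61631880 to 61631972) stand 54 bases apart within Dleu2, a long noncoding RNA gene. Mir15a was intronic there, and Mir16-1 overlapped an annotated Dleu2 exon. Mir15b (chromosome 3, 69009772 to 69009835, plus strand) and Mir16-2 (69009902 to 69009996) stand 66 bases apart in introns of Smc4, a condensin subunit gene. Mir497 (chromosome 11, 70234717 to 70234800, plus strand) and Mir195a (70235042 to 70235135) are 241 bases apart, and Mir322 (chromosome X, 53054255 to 53054349, minus strand) and Mir503 (53053984 to 53054054) are 200 bases apart. No other gene that is not itself a miRNA gene was annotated over these last 4 hairpins.

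Values are called normalized counts here. Within each library all values were whole multiples of 1 step, and they are read as read numbers after division by a size factor. The smallest value above 0 was 2 to 6 steps, so that 1 step is 1 read is inferred, not stated in the labels. On that reading the libraries held 6862623 to 10219856 reads. Neuronal miRNAs (Mir-124, Mir-128, Mir-9 and Mir-132) summed to between 1888860 and 3231141 normalized counts (median 2677908) in the exercised-lineage libraries. In the sedentary-lineage libraries they summed to between 2426118 and 3074689 (median 2782828). Arms known from the choroid plexus, which lies beside the hippocampus, summed to between 47628 and 203016 (median 60476) in the exercised lineage and between 45985 and 199458 (median 113335) in the sedentary lineage. The folds of all 10 choroid plexus arms were below 0 (higher in the sedentary lineage), and 0 were called. Their part in the results below was not tested. Submitter codes put the libraries into 4 sets of 3, R31 and R41 for the exercised lineage, and for the sedentary lineage S11 and S41. The labels do not explain the sets. Nothing in the labels names littermates, and the p-values count each mouse as independent. Mice that share a litter, sire or grandfather would not be independent. The p-values could then be too low and the confidence intervals too narrow.

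The whole family was a minor part of the hippocampal miRNA pool. Its 14 rows together held 0.108% ± 0.0159 of all normalized counts (SD, n = 12 libraries). Its lead arm, miR-16-5p, ranked 86th of 513 rows with 5251 ± 943 normalized counts, and was the family's only row among the upper 100. That 1 row made up 58.1% ± 3.25 of the family's counts. With miR-195a-5p, which differs from it at few positions, it made up 71.5% ± 3.06. Arms with the seed AGCAGCA together held 77.5% ± 2.78 of the family.

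**Figure D1:**
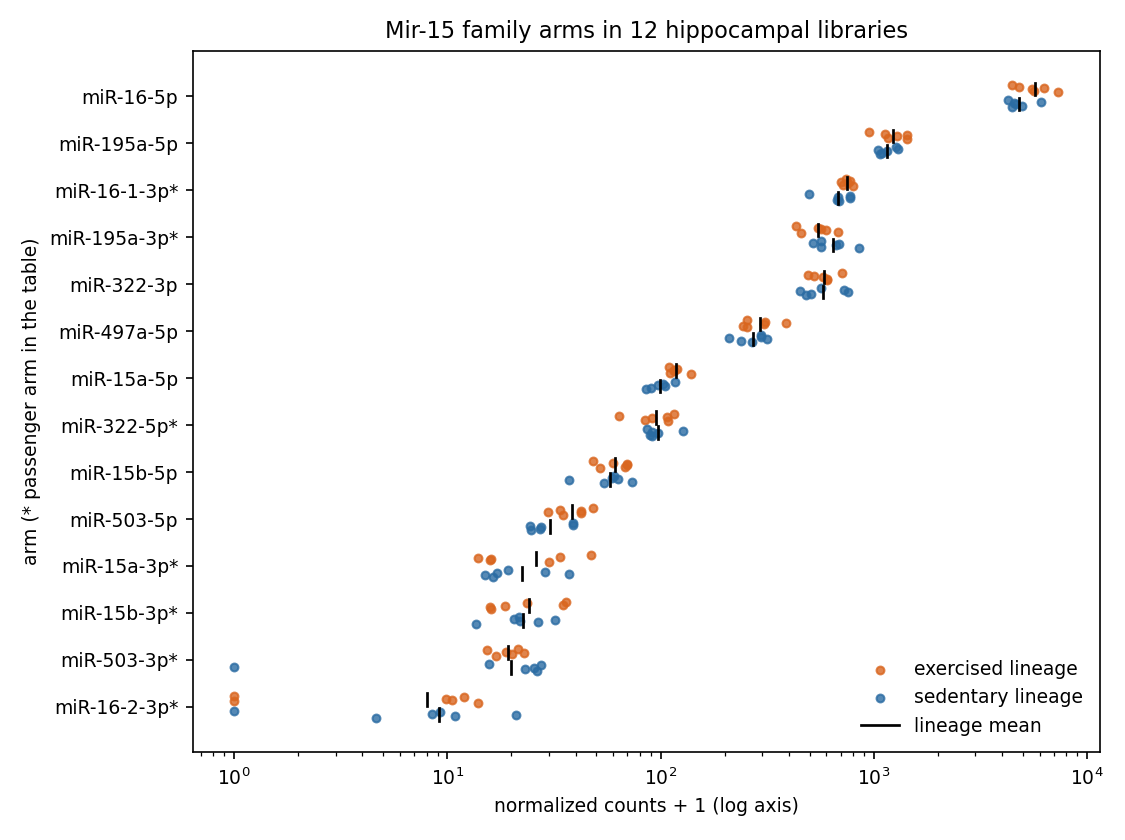
Normalized counts + 1 on a log axis for each of the 14 Mir-15 family rows, with 1 point per library (orange, exercised lineage; blue, sedentary lineage; 6 each) and black bars for lineage means. Levels run from 5251 normalized counts for miR-16-5p to 7.63 for miR-16-2-3p, and points at the left edge are values listed at 0. The lineages overlap in all 14 rows, and how many of all 513 rows overlap was not counted.

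Below miR-16-5p, the order of the arms did not follow guide and passenger status. Second came miR-195a-5p, the partner of miR-497a that is known from postnatal tissues, with 1194 ± 152 normalized counts (SD, n = 12). The next 2 rows were marked as passengers in the table: miR-16-1-3p with 713 ± 80.4 and miR-195a-3p with 593 ± 114. They were followed by miR-322-3p with 582 ± 103, miR-497a-5p with 280 ± 47.3 and miR-15a-5p with 108 ± 14.5. Then came miR-322-5p with 95.2 ± 16.7, miR-15b-5p with 58.6 ± 10.4 and miR-503-5p with 33.4 ± 7.80. The lowest 4 rows were the passenger arms miR-15a-3p (23.2 ± 10.9), miR-15b-3p (22.5 ± 7.52), miR-503-3p (18.6 ± 7.14) and miR-16-2-3p (7.63 ± 5.99). These molecules are 21 to 23 nucleotides long. Ligation and amplification can favour some small RNAs over others, so a ratio between 2 arms need not equal the ratio of their molecules in the cell.

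Some neighbours in this order were well separated and others were not. In 5 of the 13 neighbouring pairs, the upper arm was the higher one in every library. The largest such gap was between miR-16-5p and miR-195a-5p, whose log2 ratio was 2.13 ± 0.16 (SD, n = 12). miR-322-3p over miR-497a-5p (1.05 ± 0.30) and miR-497a-5p over miR-15a-5p (1.36 ± 0.26) were similarly clear. In contrast, miR-195a-3p and miR-322-3p could not be ordered, with a log2 ratio of 0.02 ± 0.44 and miR-195a-3p higher in 7 of 12 libraries. The same held for miR-15a-3p and miR-15b-3p (-0.01 ± 0.70, higher in 6 of 12). miR-16-1-3p was above miR-195a-3p in 9 of 12 libraries (0.28 ± 0.35), and miR-15a-5p above miR-322-5p in 9 of 12 (0.19 ± 0.32).

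Hairpins that sit side by side gave very different levels. Within the Dleu2 pair, miR-15a-5p stood at 108 normalized counts, while the passenger arm of its neighbour, miR-16-1-3p, stood at 713, which was 6.70 ± 1.01 times as much in the same library (SD, n = 12, range 4.29 to 8.10). miR-16-5p was 48.8 ± 6.99 times miR-15a-5p and 92.1 ± 23.1 times miR-15b-5p, but its row adds the product of both miR-16 hairpins. In the pair on chromosome 11, miR-195a-5p was 4.32 ± 0.627 times miR-497a-5p. On chromosome X, miR-322-3p was 18.02 ± 4.20 times miR-503-5p, although miR-322 and miR-503 are known to come from 1 transcript.

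The 2 miR-16 hairpins can be told apart only by their 3p arms. miR-16-1-3p, from the Dleu2 locus, lay between 497 and 799 normalized counts in the 12 libraries. miR-16-2-3p, from the Smc4 locus, lay between 0 and 20.03 and was listed at 0 in 3 libraries (exercised-lineage mice 1 and 5 and sedentary-lineage mouse 1). In the other 9 libraries miR-16-1-3p was 38.5 to 188 times as high. The 2 passenger arms differ in sequence, so this ratio does not give the share of miR-16-5p that each locus supplies.

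No Mir-15 family arm was called between the lineages. With limma on log2(value + 1) and Benjamini-Hochberg adjustment over all 474 arms, 0 of the 13 tested rows had an adjusted p below 0.05, as had 0 of all arms (0%). At an unadjusted p below 0.05 there was 1 family arm, miR-15a-5p, where the share over all tested arms was 7.17%. Of the 13 rows, 11 had a fold above 0 (higher in the exercised lineage) and 2 below, against 49.8% above 0 over all tested arms. The median log2 fold was 0.11 for the family and -0.00 for all tested arms. The neuronal arms had the same median, 0.11, with 8 of 11 folds above 0. Medians were 0.04 for oligodendrocyte arms (Mir-219, Mir-338) and 0.03 for leukocyte and microglia arms (Mir-142, Mir-150, Mir-155, Mir-223). The median was -0.03 for the arms listed under astrocytes (Mir-21, Mir-26). Medians were -0.15 for endothelium and mural cells (Mir-126, Mir-143, Mir-145), -0.23 for choroid plexus (Mir-204-P1, Mir-1298, Mir-448, Mir-34-P2) and -0.27 for red blood cells. The lists were set by name, and how particular each is to its cell type was not tested. In each of these 7 lists 0 arms were called, and their part in the family's values was not tested. The family rows vary together in part and 2 loci feed 1 of them, so their directions are not 13 separate observations. The 95% confidence interval lay within 1.5-fold in both directions for 9 of the 13 rows and within 2-fold for 12, against 279 and 392 of all 474 tested arms.

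**Figure D2:**
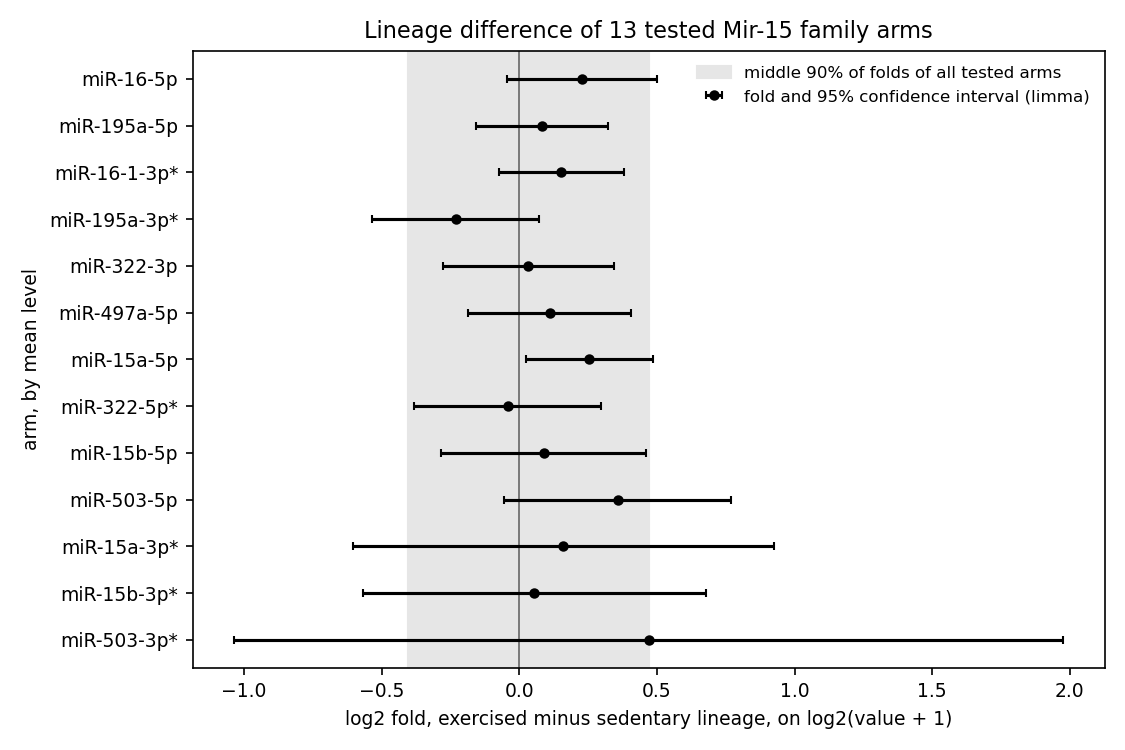
Log2 fold (exercised minus sedentary lineage, on log2(value + 1)) of the 13 tested Mir-15 family rows with limma's 95% confidence interval, ordered by mean level. The grey band holds the middle 90% of the folds of all 474 tested arms (-0.40 to 0.47), and all 13 family folds lie inside it, with the miR-15a-5p interval alone not reaching 0.

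miR-15a-5p, the guide from Dleu2, had the smallest spread of the family. In the exercised lineage its lowest, median and highest values were 108, 114 and 139 normalized counts, and in the sedentary lineage they were 84.3, 99.1 and 116. All 6 exercised-lineage mice were above the sedentary median, but sedentary-lineage mouse 1, at 116, was above 4 of them. The fold was 0.25 (SE 0.11, 95% confidence interval 0.03 to 0.48, limma adjusted p = 0.532), or 1.19 times on the linear scale, with 0.21 without exercised-lineage mouse 6, the highest library. With each library left out in turn, the fold stayed between 0.21 and 0.30. The interval reached 0 without exercised-lineage mouse 2 (-0.003 to 0.50) or mouse 6 (-0.02 to 0.43). It also reached 0 without sedentary-lineage mouse 5 (-0.02 to 0.48) or mouse 6 (-0.02 to 0.45). In the other fits that left out a single library it stayed above 0. With the mouse number as a replicate block the interval was -0.06 to 0.57.

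miR-16-5p, the arm that carries most of the family's reads, showed a difference of like size with more spread. Its lowest, median and highest values were 4455, 5586 and 7344 normalized counts in the exercised lineage and 4257, 4600 and 6069 in the sedentary lineage. The highest value belonged to exercised-lineage mouse 6, and sedentary-lineage mouse 2, at 6069, was above 4 of the 6 exercised-lineage mice. The fold was 0.23 (SE 0.13, 95% confidence interval -0.05 to 0.50, limma adjusted p = 0.532). With each library left out in turn, it ran from 0.15 without exercised-lineage mouse 6 to 0.30 without sedentary-lineage mouse 2. The interval lay above 0 without exercised-lineage mouse 1 (0.03 to 0.55) or sedentary-lineage mouse 2 (0.03 to 0.56), and reached 0 in the other such fits. It was 0.04 to 0.59 with scaling by library total and -0.01 to 0.52 with upper-quartile scaling. By submitter set, the means were 5190 ± 976 (R31), 6172 ± 1018 (R41), 4958 ± 973 (S11) and 4683 ± 256 normalized counts (S41, SD, n = 3 each). The R31 mean was thus nearer to both sedentary means than to R41.

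miR-16 is abundant in red blood cells, so their markers are given beside it. The 5 arms of Mir-144, Mir-451 and Mir-486 summed to between 631 and 838 normalized counts in the exercised lineage (median 658) and between 733 and 1219 in the sedentary lineage (median 841). The folds of 4 of these 5 arms were below 0 and 0 were called. The sum of the red cell arms thus had the lower median in the lineage with the higher miR-16-5p median. Sedentary-lineage mouse 2 had the highest sum of all 12 libraries and also the highest miR-16-5p value of its lineage. The part of red cells in the miR-16-5p values was not tested. In whole tissue, fewer cells of a type and less RNA per cell cannot be told apart.

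The remaining guide arms differed less or were less precise. miR-195a-5p averaged 1232 ± 188 normalized counts in exercised-lineage mice and 1156 ± 110 in sedentary-lineage mice (mean ± SD of 6 each), giving a fold of 0.08 (95% confidence interval -0.16 to 0.32). That fold was 0.036 without exercised-lineage mouse 3 and 0.15 without exercised-lineage mouse 1. Its pair partner miR-497a-5p stood at 292 ± 54.7 against 269 ± 40.4 (fold 0.11, -0.19 to 0.41). Its fold was 0.025 without exercised-lineage mouse 3 and -0.0064 without the 3 R31 libraries. miR-15b-5p, from Smc4, stood at 60.1 ± 9.39 against 57.1 ± 11.9 (fold 0.09, -0.28 to 0.46). miR-322-3p, which the table marks as the guide of its hairpin, stood at 585 ± 77.5 against 579 ± 131 (fold 0.03, -0.28 to 0.34). None of these 4 arms approached the threshold, with limma adjusted p from 0.797 to 0.962.

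miR-503-5p, the member with the altered seed, had the largest fold among the guide arms. Its lowest, median and highest values were 28.7, 37.6 and 47.2 normalized counts in the exercised lineage and 23.6, 26.4 and 37.9 in the sedentary lineage. The lineages overlapped, with sedentary-lineage mice 1 and 2 at 37.7 and 37.9. The fold was 0.36 (SE 0.19, 95% confidence interval -0.05 to 0.77, limma adjusted p = 0.532). Counted in steps of its library, each value was 19 to 51 steps, which are reads if 1 step is 1 read.

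The passenger arms gave folds on both sides of 0. miR-195a-3p had the lowest fold of the family, with 545 ± 92.5 normalized counts in exercised-lineage mice and 641 ± 121 in sedentary-lineage mice (mean ± SD of 6 each), giving a fold of -0.23 (95% confidence interval -0.53 to 0.07, limma adjusted p = 0.532), or -0.15 without sedentary-lineage mouse 6. Its lowest value was 430, in exercised-lineage mouse 1, and its highest 848, in sedentary-lineage mouse 6. miR-16-1-3p stood at 748 ± 35.04 against 679 ± 101 (fold 0.15, -0.07 to 0.38), and at a fold of 0.07 without sedentary-lineage mouse 1, whose 497 normalized counts were the lowest value of this arm. miR-322-5p, here the passenger, stood at 94.3 ± 19.1 against 96.2 ± 15.6 (fold -0.04, -0.38 to 0.30).

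The 3 lowest tested passenger arms had wide intervals. miR-15a-3p averaged 25.1 ± 13.2 normalized counts, against 21.3 ± 8.87 for the sedentary lineage (fold 0.16, 95% confidence interval -0.60 to 0.92), with a fold of -0.04 without exercised-lineage mouse 1, its highest library at 46.3. miR-15b-3p stood at 23.2 ± 9.24 against 21.7 ± 6.15 (fold 0.06, -0.57 to 0.68). Within the exercised lineage its 3 R31 libraries averaged 30.6 ± 6.86 and its 3 R41 libraries 15.9 ± 1.64, a larger distance than that between the lineages. miR-503-3p was listed at 0 in sedentary-lineage mouse 3 and lay between 14.3 and 26.6 in the other 11 libraries. Its fold of 0.47 (-1.04 to 1.98) turned to -0.29 without that library, and its medians, 18.4 for exercised-lineage and 23.4 for sedentary-lineage mice, point to the lower side.

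The balance between the arms of a hairpin was tested as a quantity of its own, since the scaling of the libraries cancels in it, apart from the 1 added to each value. Over all genes of the table with both arms tested and named alike, 155 in number, 5 belonged to the family. With limma on the log2 ratio of 5p to 3p, 0 of the 5 were called between the lineages, as were 0 of the 155 (0%). Over all 12 libraries, the hairpin of miR-195a had the largest difference of the 5. Its log2 ratios were 1.18 ± 0.30 for exercised-lineage and 0.86 ± 0.37 for sedentary-lineage mice (difference 0.31, SE 0.19, 95% confidence interval -0.10 to 0.73, limma adjusted p = 0.575). The difference was 0.21 without sedentary-lineage mouse 6 and 0.14 without the 3 S41 libraries. The differences of miR-15a, miR-15b and miR-322 were 0.09, 0.03 and -0.08. That of miR-503 was -0.11 (-1.59 to 1.37). Without sedentary-lineage mouse 3, whose 3p arm is listed at 0, it was 0.59 (0.04 to 1.14, limma adjusted p = 0.609), above the 0.26 of miR-195a in that fit. The miR-503 difference was 0.92 (0.46 to 1.38) without the S11 libraries and -1.14 (-2.83 to 0.55) without the S41 libraries.

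**Figure D3:**
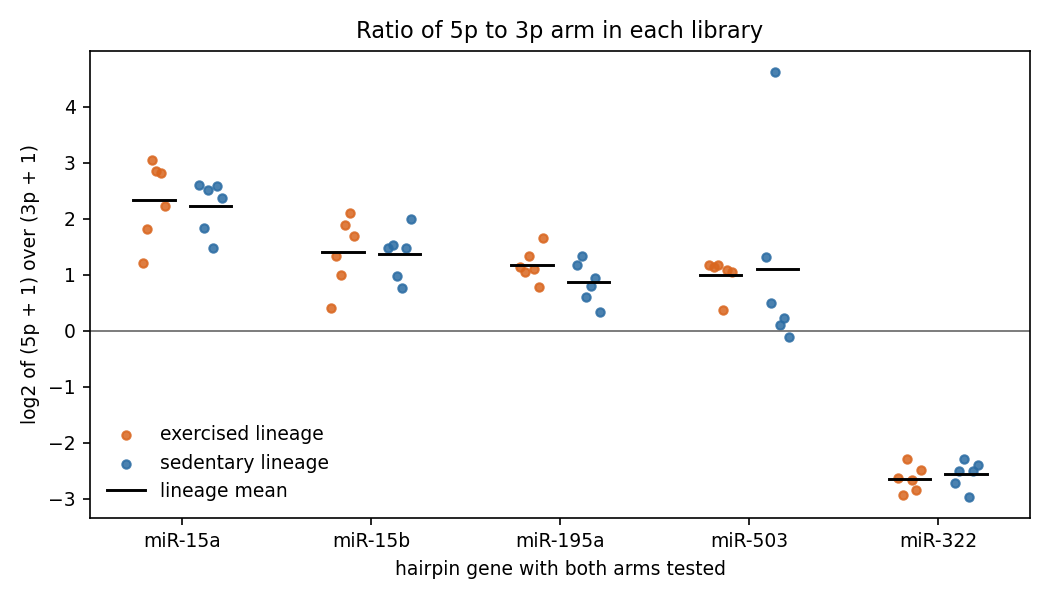
Log2 ratio of 5p to 3p arm (each + 1) per library for the 5 Mir-15 family hairpins with both arms tested, orange for the exercised and blue for the sedentary lineage, with black bars for lineage means. miR-322 stands below 0 in all 12 libraries, the other 4 have means above 0, and the single high miR-503 point, 4.62, is the library whose 3p arm is listed at 0.

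The 5 family hairpins had more even arms than the median gene, miR-195a most of all. The median absolute log2 ratio over the 155 genes was 3.58. In the family, the mean log2 ratio was 1.02 for miR-195a, 1.05 for miR-503, 1.39 for miR-15b, 2.28 for miR-15a and -2.60 for miR-322. Both arms had to reach a mean of 10, so a hairpin whose higher arm is low could not show a large ratio. This limits the comparison with the median for miR-503, miR-15b and miR-15a (5p means 33.4, 58.6 and 108). The miR-503 mean (SD 1.22) includes 4.62 in sedentary-lineage mouse 3, whose 3p arm is listed at 0. For miR-195a only 17.4% of genes had more even arms. On the linear scale, the 5p arm of miR-195a was 2.09 ± 0.510 times its 3p arm (SD, n = 12, range 1.26 to 3.15). miR-322 was the only one of the 5 with the 3p arm higher, by 6.19 ± 0.998 times with a range of 4.95 to 7.84. The table marks its 5p arm as the passenger. The miR-16 hairpins could not be entered because their 5p arms share a row. miR-16-5p from both together was 7.39 ± 1.12 times miR-16-1-3p.

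The spread of log2 values within lineages was below the median of all tested arms (0.286) for 10 of the 13 rows, among them miR-15b-5p (0.284) and miR-503-5p (0.285) just under it. It was lowest for miR-15a-5p (0.15), where only 9.70% of tested arms had a smaller spread, and then for miR-16-1-3p (0.17) and miR-195a-5p (0.19). The 3 low passenger arms stood apart with 0.63 for miR-15a-3p, 0.48 for miR-15b-3p and 1.34 for miR-503-3p.

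**Figure D4:**
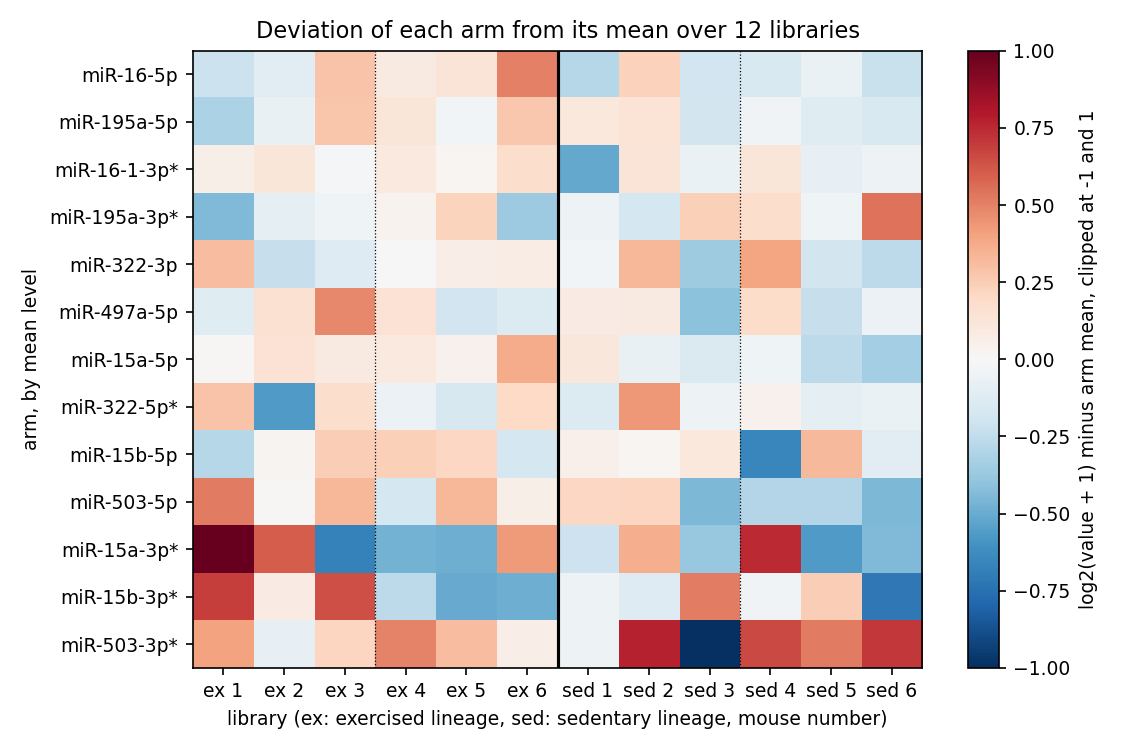
Log2(value + 1) of the 13 tested Mir-15 family rows (vertical, by mean level) in each library (horizontal), as the deviation from the arm's mean over 12 libraries, with red above, blue below and the scale clipped at -1 and 1. The solid line parts the lineages and dotted lines part the submitter sets; miR-16-5p and miR-195a-5p show similar colours across libraries, and the low passenger arms at the bottom vary most.

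Across mice, the family did not vary as a unit. After each lineage's mean was subtracted, the Pearson r between member rows over the 12 libraries ran from -0.82 to 0.77 with a median of 0.10 over 78 pairs, and 46 pairs were above 0. The median over all pairs of tested arms was -0.00. The highest belonged to miR-16-5p and miR-195a-5p (r = 0.77), which come from different chromosomes and are the most alike in sequence. The lowest was between miR-15a-3p and miR-15b-5p. miR-16-5p was less aligned with its cluster partners miR-15a-5p (r = 0.34) and miR-15b-5p (r = 0.16), and with miR-16-1-3p from its own hairpin (r = 0.39). miR-195a-5p had r = 0.54 with miR-497a-5p and r = -0.13 with its own 3p arm. These are descriptions over 12 libraries that share normalization, and low arms carry more counting noise.

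The arms outside the family with the pattern most like miR-16-5p over the 12 libraries, of 461 compared, were Mir-384_3p (r = 0.83), Mir-30-P2c_5p (r = 0.83) and Mir-23-P1_3p (r = 0.82). For miR-195a-5p they were Mir-17-P5_5p (r = 0.84), the shared 3p row of Mir-19-P2a and Mir-19-P2b (r = 0.83) and Mir-154-P6_3p (r = 0.82). Each was picked as the highest of the 461.

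RefSeq lists 4 further mouse miRNAs with the seed AGCAGCA (miR-195b, miR-6342, miR-6353 and miR-6419). A search by these names cannot show whether the table holds them, since it uses other names. miR-103 and miR-107 begin with the family seed shifted by 1 base, as the sequences show, with bases 2 to 8 in capitals.
miR-103-3p: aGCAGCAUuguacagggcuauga
miR-107-3p: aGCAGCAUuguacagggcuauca
These are known for regulating metabolism and Dicer, and they share 1 row, Mir-103-P1_3p with P2 and P3. It averaged 23652 ± 4282 normalized counts in exercised-lineage mice and 26225 ± 4569 in sedentary-lineage mice (mean ± SD of 6 each), 4.89 times miR-16-5p on average. Its fold was -0.16 (95% confidence interval -0.47 to 0.15, limma adjusted p = 0.669), with the lowest library at 15576 and the highest at 35255. The row of the shifted seed thus had a fold below 0. The most abundant row of the family's own seed had one above 0, and both intervals reach 0.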

How the data were processed

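Small RNA of the hippocampus of 12 mice was sequenced, 1 library per mouse (6 per lineage), per the labels' protocols with a NEBNext small RNA kit. The submitters' processing notes name Bowtie 1.3.0, DESeq2 and mm10. The deposited signal values are called normalized counts here. In each library all values were whole multiples (tolerance 0.01) of 1 step, which is read as 1 read divided by a size factor. The smallest values above 0 were 2 to 6 steps, so this reading is inferred. On it, totals were 6862623 to 10219856 reads, and few reads limit the low arms.

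Arms with a mean of at least 10 were tested with limma 3.58.1 in R 4.3.3 on log2(value + 1), with a mean-variance trend and Benjamini-Hochberg adjustment over all tested arms (threshold 0.05). Fold means the log2 difference, exercised minus sedentary lineage. The added 1 shrinks it for low arms, and a single value listed at 0 can dominate it. The miR-503-3p fold was 0.47, but 0.63 with a pseudocount of 0.5, 0.08 with a pseudocount of 10 and -0.29 without sedentary-lineage mouse 3. The log2 ratio of 5p to 3p was tested likewise, without the trend. The fit was tested on simulated data. All family arms are named, and beside each arm with a mean of at least 1000 the 3 most similar outside arms by Pearson r. Members and lists were chosen with earlier results of these data known. Scaling, pseudocount, filter, trend, block and left-out libraries were varied. Sequences are from RefSeq and loci from GENCODE M21.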

Additional observations from a re-analysis of the deposited data

Results flagged for a closer look

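Of 38 groups of 6 libraries checked, 5 had a highest or lowest library far from the others (its gap to the nearest library over the group's range was above Dixon's 95% critical value). Chance gives about 1 in 20. For miR-16-1-3p (Mir-15-P2a_3p*), sedentary-lineage mouse 1 stood low at 497 normalized counts. For miR-15a-5p, exercised-lineage mouse 6 stood high at 139. For miR-322-5p, sedentary-lineage mouse 2 stood high at 127. The log2 ratio of 5p to 3p of miR-503 was low, at 0.38, in exercised-lineage mouse 4, and high, at 4.62, in sedentary-lineage mouse 3, where the 3p arm is listed at 0.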

How the results depend on the processing

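In all 24 alternative settings, 0 family arms and 0 arms of the table were called. The number of tested family arms with a fold above 0 ran from 8 to 12 of 13 where all 13 were tested. Leaving out 1 library at a time gave 0 to 3 family arms at an unadjusted p below 0.05, and 0 called arms and ratios. With the mouse number as a replicate block, 0 family arms and 16 of all arms had an unadjusted p below 0.05, against 1 and 34 without it. Profiles of mice with the same number, with lineage means subtracted, were little alike (r from -0.17 to 0.15). Of the 6, 1 correlated best with its own number. Profile correlations of 6 pairs cannot settle whether the numbers pair the mice.

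Folds and ratio differences that changed sign are listed here; the cause was not tested. Scaling by library total gave 0.043 for miR-322-5p. A pseudocount of 10 gave 0.20 for the miR-503 ratio. Without the R31 libraries, the folds were -0.10 for miR-15a-3p, -0.39 for miR-15b-3p and -0.0064 for miR-497a-5p. Without S41, they were -0.084 for miR-15b-3p and -0.012 for miR-15b-5p. Without R41, the fold of miR-322-3p was -0.00050, and the ratio differences were -0.21 (miR-15a), -0.46 (miR-15b) and 0.053 (miR-503). Without S11, the folds were 0.017 for miR-322-5p and -0.39 for miR-503-3p, and the ratio differences were -0.0058 (miR-15b) and 0.92 (miR-503). Leaving out 1 library at a time, folds ran from -0.041 to 0.33 for miR-15a-3p, -0.082 to 0.16 for miR-15b-3p, -0.033 to 0.16 for miR-15b-5p, -0.035 to 0.12 for miR-322-3p, -0.10 to 0.066 for miR-322-5p and -0.29 to 0.67 for miR-503-3p. Ratio differences ran from -0.055 to 0.32 for miR-15a, -0.11 to 0.23 for miR-15b and -0.35 to 0.59 for miR-503. The planned tests on recovered whole reads were not run, because the steps did not meet the criterion for recovered reads.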
